A study of Mus musculus with 4 samples.

Results

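The Fc receptors and myeloid C-type lectins described here, with their adaptors, are 10 of the 12393 genes named on both array types: the IgG receptors Fcgr1, Fcgr2b and Fcgr3, the adaptors Fcer1g and Tyrobp, and the lectin receptors Clec4a2, Clec4d, Clec4n, Clec7a and Clec5a. They were chosen by family and taken by the gene symbol in the platform annotation, which gave 15 of the 22626 probe sets measured on both array types and 2 of the 22411 probe sets measured on the larger type only. A probe set is a group of short oligonucleotides on the array that together read 1 transcript. Of the 15 probe sets on both types, 12 passed the filter on low signals and were tested, which covered 8 of the 10 genes. Fcgr1 and Clec4n were not tested.

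Fc receptors bind the constant part of antibodies, and myeloid C-type lectins bind sugars and glycolipids of microbes or of the host. Many of them have no signalling motif of their own and signal through a small membrane adaptor, Fcer1g (the Fc receptor gamma chain) or Tyrobp (DAP12), whose ITAM tyrosine motif recruits the kinase Syk. Others carry an inhibitory motif, the ITIM, which recruits phosphatases that oppose Syk. In bone marrow the low-affinity IgG receptors have a second use, since the antibody commonly used to sort granulocyte/monocyte progenitors (GMP) binds the proteins of Fcgr3 and Fcgr2b.

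RNA came from GMP sorted by flow cytometry from 10 to 16 week old mice that lacked Icsbp, the transcription factor also called Irf8, or had the wild type gene. Each genotype had 2 preparations, 1 hybridised to a 430A array and 1 to an MOE430_2 array. Each was a pool, of at least 8 Icsbp-deficient or at least 10 wild type mice, so differences between individual animals are not measured. No source used here gives the Icsbp allele, and the strain, a mixed C57/Bl6 - S129Ola background, is given for the wild type 430A sample only. That sample's label names no genotype, and the series' design text placed it as the wild type preparation of the 430A type. For the Icsbp-deficient 430A sample an ENZO labelling kit is named, and for both MOE430_2 samples a one-cycle kit. No source used here gives the gate of the sort. In such bulk samples, fewer cells of a type and less RNA per cell cannot be told apart.

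Signals are given after scaling each array to a trimmed mean of 500, in arbitrary units, with the 430A value first and the MOE430_2 value second. Ratios set Icsbp-deficient against wild type, in log2 units, after an offset of 50, which understates the change of dim genes, and ± is the moderated standard error of limma over the ratios of n = 2 array types. A gene or probe set was called where the limma p, adjusted over the 13576 tested probe sets, was under 0.05. The test keeps array type as a block and borrows most of its error from other genes.

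Icsbp-deficient GMP had higher transcripts of the activating IgG receptor Fcgr3, of both ITAM adaptors, and of the lectin receptors Clec5a and Clec4a2. Transcripts of the inhibitory IgG receptor Fcgr2b and of Clec7a and Clec4d did not pass the test, and Fcgr1 and Clec4n were dim on all 4 arrays. In all, 6 of the 12 tested probe sets, from 5 genes, were called higher, against 2.99% of all tested probe sets. None, 0 of 12, was called lower by limma, against 2.14% of all tested probe sets, and at an unadjusted p under 0.05 the counts were 7 higher and 0 lower. Of all 13576 tested probe sets, 2522 had an unadjusted p under 0.05, both directions together. The median log2 ratio of the 15 probe sets was 0.34, against -0.003 for all probe sets on both array types. On 9 of the 12 both Icsbp-deficient signals lay above both wild type signals, as on 11.6% of all tested probe sets, and 3 of these 9 were not called (Clec4d and Fcgr2b on 1451941_a_at and 1455332_x_at). This count compares signals across array types, which differ in level for some probe sets. Without the array type block limma called 0 of the 12, with 5 higher at an unadjusted p under 0.05. Leaving out 1 array leaves no such block, and then at most 1 of them, Clec5a, was called.

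**Figure D1:**
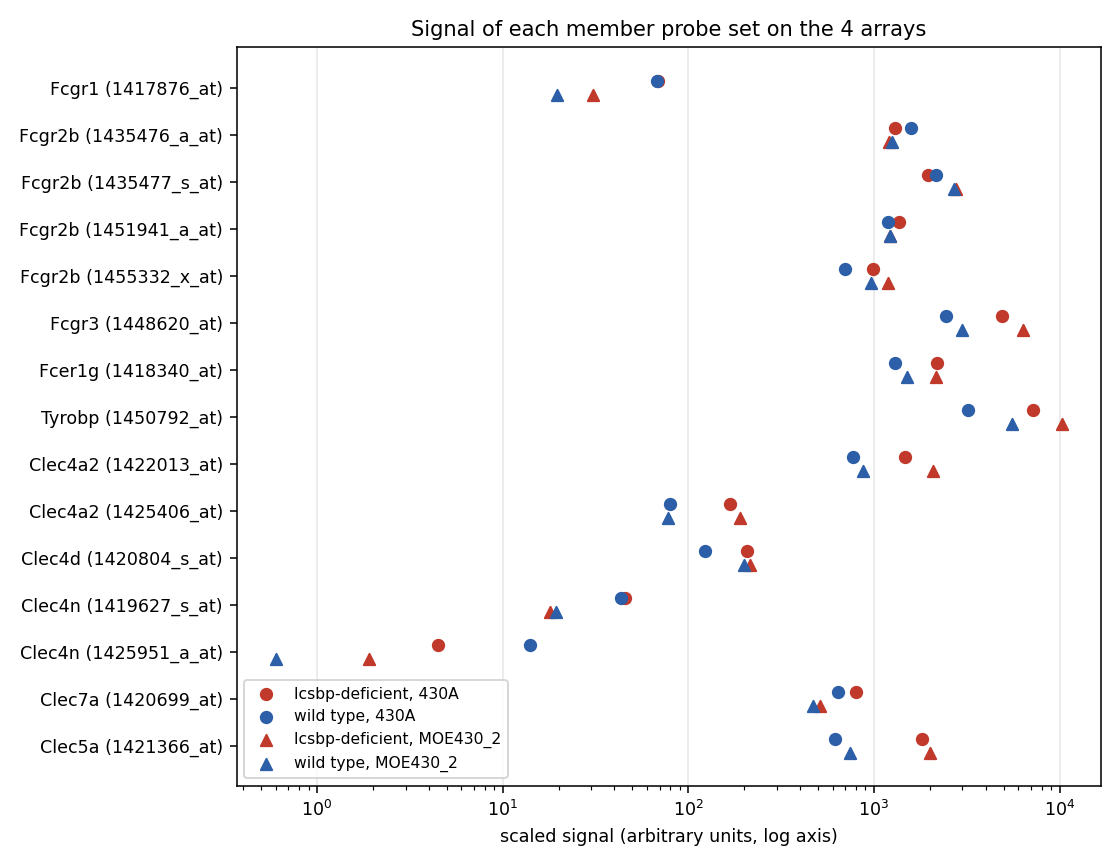
Scaled signal (arbitrary units, log axis) of the 15 probe sets on each of the 4 arrays, with Icsbp-deficient arrays in red and wild type arrays in blue, circles for 430A and triangles for MOE430_2. For Fcgr3, Fcer1g, Tyrobp, Clec4a2 and Clec5a both red symbols lie to the right of both blue ones, as they do for the uncalled Clec4d and 2 of the 4 Fcgr2b probe sets.

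The receptors for IgG did not move together. Fcgr3, a low-affinity activating receptor that needs the gamma chain, had signals of 4899 and 6337 in Icsbp-deficient GMP, against 2432 and 2994 in wild type GMP. Both Icsbp-deficient arrays lay above both wild type arrays, and the ratios of the array types were nearly equal, 1.00 for the 430A pair and 1.01 for the MOE430_2 pair. Fcgr3 was thus 2.01-fold higher, or 1.00 ± 0.11 in log2 units (limma adjusted p = 0.000776), with a 95% interval of the fold of 1.70 to 2.37.

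Fcgr2b is the inhibitory low-affinity receptor, a single chain with its own ITIM, and 4 probe sets of both array types read it. The brightest, 1435477_s_at, had 1949 and 2757 in Icsbp-deficient GMP, against 2170 and 2715 in wild type GMP. The groups overlapped and the log2 ratio was -0.05 ± 0.12 (limma adjusted p = 0.861), with an interval of the fold of 0.80 to 1.16. The probe set 1435476_a_at had 1302 and 1200 in Icsbp-deficient GMP, against 1579 and 1252 in wild type GMP, a log2 ratio of -0.15 ± 0.14, and 1451941_a_at had 1372 and 1218, against 1189 and 1215, a log2 ratio of 0.11 ± 0.14. These 3 probe sets gave ratios close to 0 in either direction, and the intervals of the fold ran over 0.73 to 1.11 and 0.88 to 1.33 for the last pair.

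The last Fcgr2b probe set had the highest ratio of the 4. By the array maker's naming, the suffix _s_at marks probes shared by several transcripts, as on the brightest, 1435477_s_at. The Clec4d probe set and the brighter Clec4n probe set carry it too. The suffix of this last Fcgr2b probe set, 1455332_x_at, marks probes that can match other sequences. It had 987 and 1186 in Icsbp-deficient GMP, against 699 and 963 in wild type GMP, a log2 ratio of 0.38 ± 0.14 (limma adjusted p = 0.172, unadjusted p = 0.0213). The interval of the fold, 1.05 to 1.62, lay below that of Fcgr3. The difference between the Fcgr3 and Fcgr2b ratios was not tested.

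Fcgr1, the high-affinity IgG receptor, was dim. Its signals on 1417876_at were 68.8 and 30.6 in Icsbp-deficient GMP, against 67.6 and 19.6 in wild type GMP, which placed it between percentiles 20.8 and 32.1 of the probe sets of an array, below the limit for testing. Fcgr4, a further activating IgG receptor, whose gene lies between Fcgr2b and Fcgr3 in the gene order of chromosome 1, had 224 and 80.1 in Icsbp-deficient GMP, against 213 and 79.5 in wild type GMP, a log2 ratio of 0.05 ± 0.20 (limma adjusted p = 0.925). Within this run of 3 neighbouring genes, Fcgr3 alone was called.

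**Figure D2:**
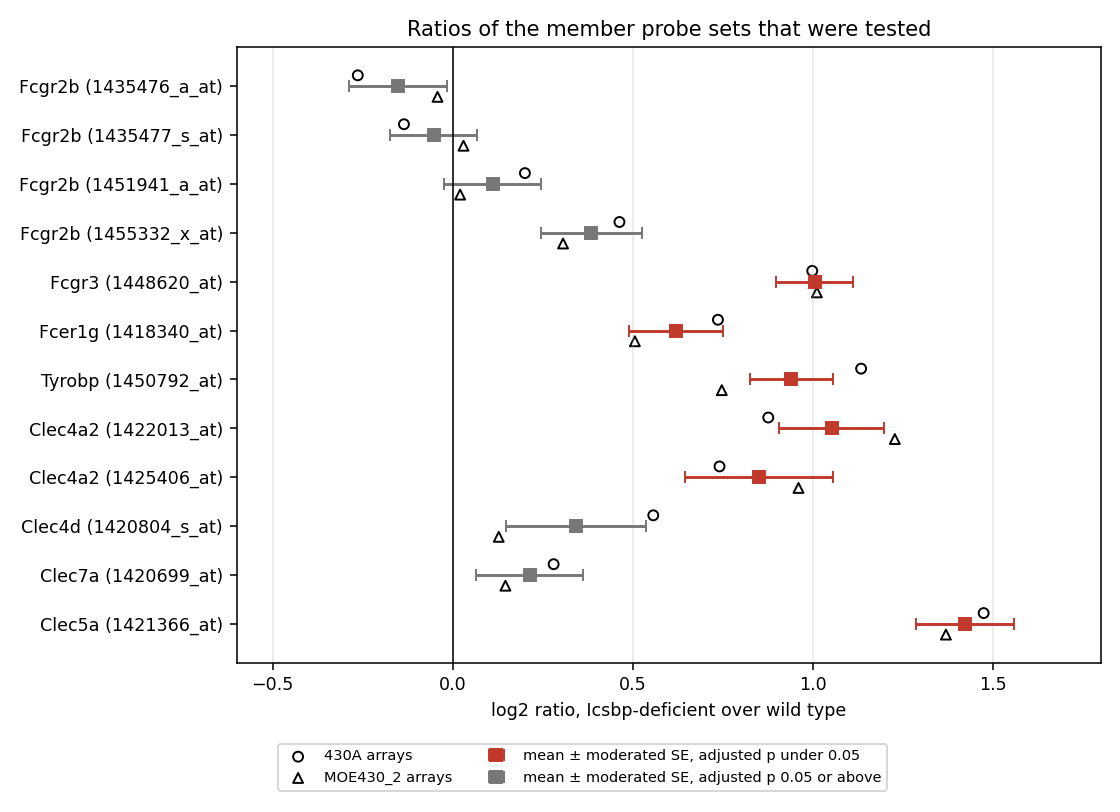
Log2 ratio of Icsbp-deficient over wild type GMP for the 12 tested probe sets: open circles are the 430A arrays, open triangles the MOE430_2 arrays, and squares with bars the mean ± moderated standard error, red where the adjusted p was under 0.05. The highest mean is that of Clec5a at 1.42, and 3 of the 4 Fcgr2b means lie between -0.15 and 0.11.

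Both adaptors were higher. Fcer1g, which carries Fcgr1, Fcgr3, Fcgr4 and several lectins, had 2190 and 2151 in Icsbp-deficient GMP, against 1301 and 1516 in wild type GMP. All Icsbp-deficient values lay above the wild type values, a 1.54-fold difference at 0.62 ± 0.13 in log2 units (limma adjusted p = 0.0246). This call ended without the filter on low signals, at an adjusted p of 0.0576, and without the intensity trend of the error, at 0.109.

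Tyrobp, the partner of Clec5a and of the Trem receptors, had 7241 and 10289 in Icsbp-deficient GMP, against 3218 and 5521 in wild type GMP. The groups did not overlap, and Tyrobp was 1.92-fold higher at 0.94 ± 0.11 (limma adjusted p = 0.00169). The 430A pair gave 1.13 and the MOE430_2 pair 0.75. Without the wild type 430A array, and so without the block, the log2 ratio was 0.54 and was not called. It was also among the brightest transcripts, at or above percentile 95.9 on each array.

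Of the 12 tested probe sets, the highest ratio was that of Clec5a (MDL-1), an activating receptor that pairs with Tyrobp. Its signals were 1812 and 1994 in Icsbp-deficient GMP, against 614 and 744 in wild type GMP, so that each Icsbp-deficient array lay far above each wild type array. Clec5a was 2.68-fold higher at 1.42 ± 0.14 (limma adjusted p = 0.000408). The 430A pair gave 1.47 and the MOE430_2 pair 1.37.

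Clec4a2 (DCIR) is an inhibitory lectin with its own ITIM, and its probe sets were both called higher. The brighter, 1422013_at, had 1465 and 2081 in Icsbp-deficient GMP, against 774 and 875 in wild type GMP, a 2.07-fold difference at 1.05 ± 0.14 (limma adjusted p = 0.00317). The dimmer, 1425406_at, had 168 and 191 in Icsbp-deficient GMP, against 79.7 and 78.2 in wild type GMP, at 0.85 ± 0.21 (limma adjusted p = 0.0451). Neither probe set overlapped between the groups, but the call of the dimmer ended without the filter (adjusted p = 0.161), with an offset of 16 (0.0654) and without the intensity trend (0.0501).

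A further probe set, 1425407_s_at, is annotated to Clec4a2 and to its chromosomal neighbour Clec4b1 and was not counted above. It had 2262 and 2744 in Icsbp-deficient GMP, against 522 and 1163 in wild type GMP, or 1.61 ± 0.18 in log2 units (limma adjusted p = 0.00103). The 430A pair gave 2.01 and the MOE430_2 pair 1.22, and which of the genes it read cannot be told apart.

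Of the lectins of fungal and mycobacterial recognition, Clec7a and Clec4d did not pass and Clec4n was too dim to be tested. Clec7a (Dectin-1), a beta-glucan receptor that recruits Syk by a tyrosine motif of its own, had 801 and 514 in Icsbp-deficient GMP, against 642 and 472 in wild type GMP. The Icsbp-deficient array was the higher on each array type, but the groups overlapped across the types. The log2 ratio was 0.21 ± 0.15 (limma adjusted p = 0.500), with an interval of the fold of 0.92 to 1.46. Clec4d (Dectin-3), which signals through the gamma chain, had 206 and 214 in Icsbp-deficient GMP, against 123 and 201 in wild type GMP, a log2 ratio of 0.34 ± 0.20 (limma adjusted p = 0.393). Most of that ratio came from the 430A arrays, at 0.56, with 0.13 on the MOE430_2 arrays. Clec4n (Dectin-2), a mannan receptor of the gamma chain, had 45.8 and 18.0 in Icsbp-deficient GMP, against 43.3 and 19.3 in wild type GMP, on its brighter probe set, and at most 14.0 on any array on the other.

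On the 2 probe sets of the MOE430_2 array alone there was 1 array per genotype and no test. Fcgr1 on 1436625_at had 48.9 in Icsbp-deficient and 45.5 in wild type GMP, and Fcgr2b on 1447622_at had 3.8 and 17.1, a log2 ratio of -0.32 at signals well under the offset. Of these, 0 reached a 2-fold difference, against 0.598% of such probe sets 2-fold higher and 0.602% 2-fold lower.

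The start regions of the genes are shown because Irf8 binds DNA mainly as a partner of ETS factors such as PU.1, on a composite element, or with other factors on an interferon response element. RefSeq windows of build GRCm38.p6, from 250 bases before to 50 after a transcription start, were matched for 8 of the 10 genes. Tyrobp and Clec4n had no window and were not searched. Both strands were searched for the composite form GGAANNGAA, the interferon response form GAAANNGAA, the PU.1 form GAGGAAGT and the C/EBP form TTGCNNAA. The first pair of motifs can overlap each other. The 8 genes have 10 windows, since Clec7a and Fcgr3 have 2 each. The composite form was found in 3 of the 8 genes (Fcgr2b, Clec7a and Clec5a), against 9.42% of all 27025 genes with a window. The interferon response form was found in 1 (Clec4d), against 9.76%, the C/EBP form in 1 (Fcgr3), against 12.2%, and the PU.1 form in 0, against 3.69%. Per window, 8.24% of all 32851 hold the composite form and 8.56% the interferon response form. For each of the 4 genes with a composite or interferon response form, 1 window is shown. The second Clec7a window overlaps the first and holds the same letters. The windows read as follows, 5′ to 3′ along the gene, with the match in capitals, all of them on the strand opposite to the gene.
Fcgr2b (chr1:170976022-170976321, minus strand): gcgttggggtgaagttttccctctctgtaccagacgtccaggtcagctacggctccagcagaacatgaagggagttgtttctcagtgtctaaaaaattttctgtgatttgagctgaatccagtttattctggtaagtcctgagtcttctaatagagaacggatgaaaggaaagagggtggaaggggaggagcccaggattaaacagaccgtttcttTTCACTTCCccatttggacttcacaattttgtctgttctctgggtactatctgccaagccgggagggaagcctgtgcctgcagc
Clec4d (chr6:123261857-123262156, plus strand): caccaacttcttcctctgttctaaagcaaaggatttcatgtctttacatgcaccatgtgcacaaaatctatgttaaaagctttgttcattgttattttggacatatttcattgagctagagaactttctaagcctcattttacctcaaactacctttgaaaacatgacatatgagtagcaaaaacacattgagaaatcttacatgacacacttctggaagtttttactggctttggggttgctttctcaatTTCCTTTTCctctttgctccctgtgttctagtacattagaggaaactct
Clec7a (chr6:129472730-129473029, minus strand): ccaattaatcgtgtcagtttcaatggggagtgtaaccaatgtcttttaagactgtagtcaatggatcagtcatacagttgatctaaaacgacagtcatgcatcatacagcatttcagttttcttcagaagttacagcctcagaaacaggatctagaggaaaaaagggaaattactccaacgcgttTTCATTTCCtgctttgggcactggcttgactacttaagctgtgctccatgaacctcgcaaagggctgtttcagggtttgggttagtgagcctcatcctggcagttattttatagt
Clec5a (chr6:40585756-40586055, minus strand): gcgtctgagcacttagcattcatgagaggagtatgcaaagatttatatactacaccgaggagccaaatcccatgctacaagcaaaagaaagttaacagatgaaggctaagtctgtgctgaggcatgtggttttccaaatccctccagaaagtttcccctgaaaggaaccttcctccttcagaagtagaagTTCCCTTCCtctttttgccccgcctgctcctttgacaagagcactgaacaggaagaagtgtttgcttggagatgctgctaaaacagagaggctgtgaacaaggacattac

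The matched letters began 34 bases before the start in Fcgr2b, 65 in Clec7a and 60 in Clec5a, and 2 bases past it in Clec4d. Of these genes only Clec5a was called, and the called genes Fcgr3, Fcer1g and Clec4a2 had neither form in their windows. Tyrobp, also called, had no window to search. A match describes the letters and is not evidence of binding.

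The other genes of these families were taken from lists. Of 12 further Fc receptor genes, 4 were tested, of which 0 rose and 2 fell by limma, with 1 higher and 2 lower at an unadjusted p under 0.05. Over all 7820 tested genes 3.26% were called higher and 2.34% lower, the shares to set beside each list. Those that fell were Fcer1a and Ms4a2, the alpha and beta chains of the high-affinity IgE receptor, which on mast cells and basophils is completed by Fcer1g. Fcer1a had 51.5 and 24.9 in Icsbp-deficient GMP, against 232 and 385 in wild type GMP, a log2 ratio of -1.99 ± 0.26 (limma adjusted p = 0.00245). Ms4a2 had 129 and 35.9 in Icsbp-deficient GMP, against 322 and 326 in wild type GMP, at -1.59 ± 0.25 (limma adjusted p = 0.00659). The filter took the mean of the 4 arrays. Fcer1a lay at percentiles 27.3 and 24.6 in Icsbp-deficient GMP, against 55.4 and 68.0 in wild type GMP. It thus passed the filter through its wild type signals. Ms4a2 lay at percentiles 44.0 and 30.7 in Icsbp-deficient GMP, against 61.8 and 65.1 in wild type GMP. The chains of this IgE receptor therefore differed in direction, with Fcer1g higher and the other chains lower. The neonatal receptor Fcgrt, which recycles IgG, was at 0.64 ± 0.20 and did not pass (adjusted p = 0.114).

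Of 33 further C-type lectin genes, 9 were tested, of which 1 rose and 1 fell, with a median log2 ratio of -0.08 against -0.01 for all tested genes. Mgl2, a galactose-binding lectin of macrophages and dendritic cells, rose by 0.79 ± 0.15 (limma adjusted p = 0.0150). Its signals were 947 and 939 in Icsbp-deficient GMP, against 483 and 575 in wild type GMP. Cd72, an inhibitory lectin best known on B cells, fell by 1.34 ± 0.24 on the log2 scale (limma adjusted p = 0.0136). It lay at percentiles 21.5 and 42.9 in Icsbp-deficient GMP, against 55.2 and 56.1 in wild type GMP, so the filter kept it mainly through wild type signals. Clec4e (Mincle), the neighbour of Clec4d and also a gamma chain receptor, had 154 and 328 in Icsbp-deficient GMP, against 353 and 377 in wild type GMP, at -0.56 ± 0.21 (limma adjusted p = 0.187). The 430A pair gave -0.99 and the MOE430_2 pair -0.14.

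Of 23 other partners of the adaptors and inhibitory receptors, 11 were tested, of which 4 rose and 0 fell by limma, with 6 higher and 0 lower at an unadjusted p under 0.05, and a median of 0.49. Itgb2 and Itgam, the chains of the Mac-1 integrin, which in neutrophils signals through both adaptors, were at 1.06 ± 0.13 and 0.76 ± 0.18 (limma adjusted p = 0.00202 and 0.0400). Trem3, a Tyrobp partner, had 3145 and 5083 in Icsbp-deficient GMP, against 2003 and 2703 in wild type GMP, at 0.77 ± 0.12. Sirpa, an ITIM receptor for Cd47, had 2377 and 969 in Icsbp-deficient GMP, against 1276 and 655 in wild type GMP, at 0.72 ± 0.14. Without the intensity trend the calls of Trem3, Sirpa and Itgam ended, as did that of Mgl2, and without the filter those of Sirpa and Itgam, and of Ms4a2 and Cd72. The call of Itgam ended with an offset of 16 as well (adjusted p = 0.0572). Hcst, a small adaptor without an ITAM whose gene neighbours Tyrobp, was at 0.49 ± 0.16 and did not pass (adjusted p = 0.120), nor did Trem1 at 0.16 and Trem2 at 0.48. For Trem1 the 430A pair gave 0.52 and the MOE430_2 pair -0.20, and for Trem2 they gave 1.04 and -0.07.

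**Figure D3:**
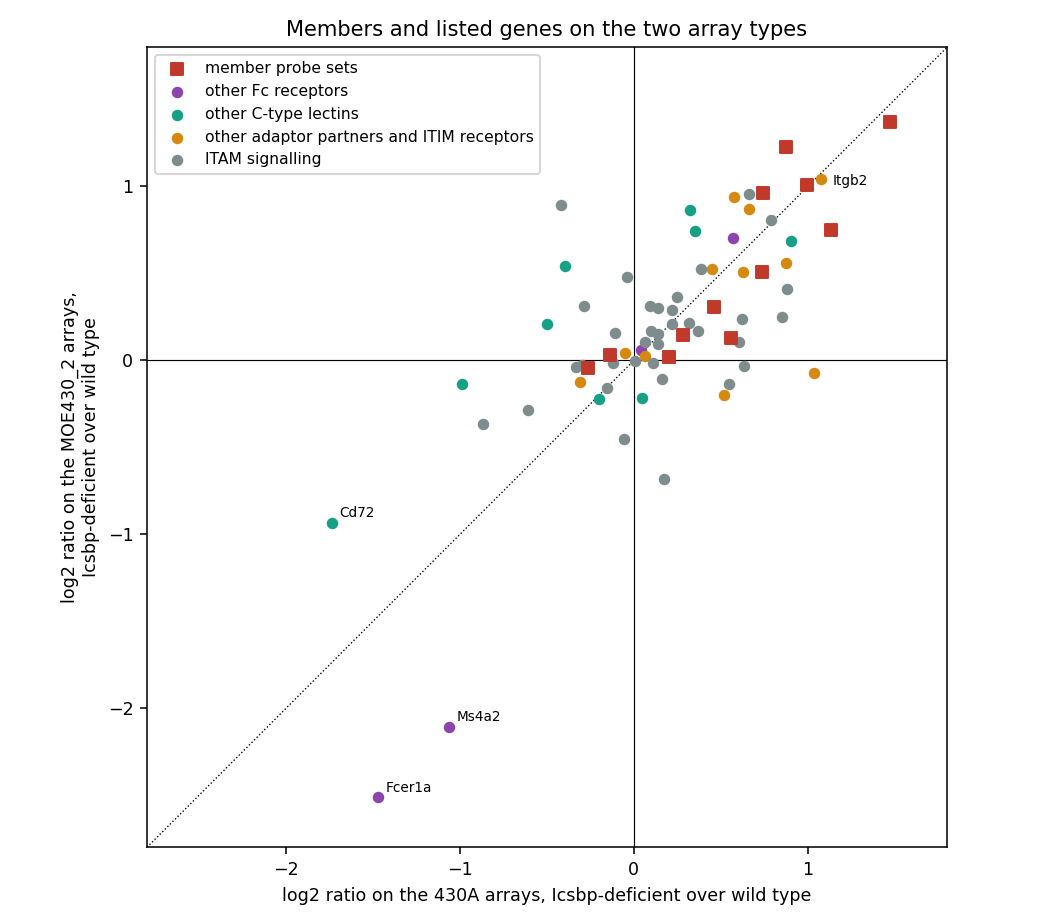
Log2 ratio on the 430A arrays (horizontal) against the MOE430_2 arrays (vertical), Icsbp-deficient over wild type, for the 12 tested member probe sets (red squares) and the tested genes of the 4 lists, with the dotted line marking equal ratios. The IgE receptor chains Fcer1a and Ms4a2 lie lowest on the vertical axis, at -2.51 and -2.11, and most grey ITAM signalling genes lie near the origin.

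The signalling genes downstream of the ITAM showed smaller ratios. Of 48 listed genes 35 were tested, of which 3 rose and 0 fell by limma, against 3.26% and 2.34% of all tested genes. At an unadjusted p under 0.05, 7 were higher and 1 lower, against 2522 of all 13576 tested probe sets in either direction. The median was 0.20, and 27 of the 35 ratios were above 0. Prkcb, a protein kinase C of immune receptors, was at 0.81 ± 0.15, Dok3, an inhibitory adaptor, at 0.80 ± 0.14 and Lcp2 (SLP-76), an adaptor of the phospholipase C pathway, at 0.65 ± 0.16 (limma adjusted p = 0.0151, 0.0132 and 0.0469). These 3 calls ended without the intensity trend, where 0 of the list passed and 6 were higher at an unadjusted p under 0.05. That of Lcp2 also ended without the filter (adjusted p = 0.109) and with an offset of 16 (0.0673).

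The kinase that the adaptors recruit, Syk, had 1350 and 1051 in Icsbp-deficient GMP, against 1220 and 956 in wild type GMP, a log2 ratio of 0.15 ± 0.13 (limma adjusted p = 0.628). Plcg2, the phospholipase of this pathway, was at 0.26 ± 0.12 and Btk at 0.05 ± 0.13, and neither passed. Inpp5d (SHIP1), the phosphatase that Fcgr2b recruits, was at 0.01 ± 0.16, and Ptpn6 (SHP-1), which binds other ITIMs, at 0.43 ± 0.14 (limma adjusted p = 0.123). The difference between the ratios of the receptors and those of the signalling genes was not tested.

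Markers of other cell types differed in both directions. Over all tested genes 3.26% were called higher and 2.34% lower. The maturing neutrophil list was higher in 8 of 10 tested genes, with summed signals of 29473 and 55557 in Icsbp-deficient GMP, against 10843 and 20063 in wild type GMP. The monocyte and macrophage list was higher in 2 of 7, with sums of 9382 and 10834 in Icsbp-deficient GMP, against 7289 and 7696 in wild type GMP, and C1qa of mature macrophages had at most 12.9. Those called were Ccr2 and Cd68, with log2 ratios of 1.43 and 1.03. Adgre1 (0.74), Ms4a6c (0.21), Csf1r (-0.01), Cd14 (-0.12) and Cx3cr1 (-0.25) did not pass. The basophil and mast cell list, which holds Fcer1a and Ms4a2 themselves, was lower in 6 of 6 tested genes, with sums of 1972 and 2141 in Icsbp-deficient GMP, against 5235 and 5722 in wild type GMP. The eosinophil sums were 477 and 223 in Icsbp-deficient GMP, against 1329 and 3517 in wild type GMP. Of this list 2 of 2 tested genes were called lower, Prg2 and Epx, with log2 ratios of -2.94 and -1.99. Below the filter, Prg3 was at -1.31, Il5ra at 0.07 and Ccr3 at 0.04. The dendritic sums were 962 and 278 in Icsbp-deficient GMP, against 1256 and 763 in wild type GMP. Of the dendritic list 3 of 4 tested genes were called lower, Cd74, H2-Eb1 and H2-Aa, with log2 ratios of -1.07, -1.07 and -1.44. Flt3 was at -0.05, and Itgax and Zbtb46, below the filter, were at 0.24 and 0.26. H2-Aa lay at percentiles 35.4 and 15.7 in Icsbp-deficient GMP, against 47.2 and 60.6 in wild type GMP. Like Fcer1a, it passed the filter through its wild type signals. The B cell list, which bears on Cd72, had 0 of 2 tested genes called and sums of 2038 and 3051 in Icsbp-deficient GMP, against 2286 and 2465 in wild type GMP. No measured marker was at 0 on any array, but all 4 T cell and 4 of 5 NK cell markers were below the filter on low signals. The part of these cell types in the ratios of the receptors was not tested.

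**Figure D4:**
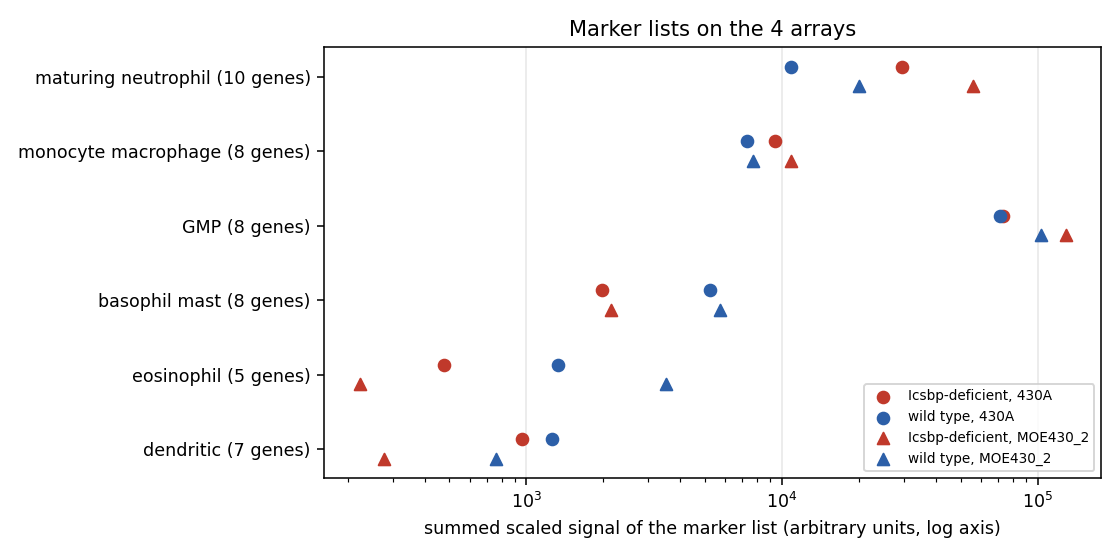
Summed scaled signal (arbitrary units, log axis) of 6 marker lists on each array, Icsbp-deficient in red and wild type in blue, circles for 430A and triangles for MOE430_2. The red symbols lie right of the blue ones of the same array type for the neutrophil and monocyte lists and left of them for the basophil and mast cell, eosinophil and dendritic lists.

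Of the markers of GMP all 8 passed the filter on low signals, and Mpo, of their granules, was among the brightest probe sets on every array. Of these, Fcgr3 itself and Cebpa were called higher, and Cd34, whose protein is commonly used with that of Fcgr3 to sort these cells, had 819 and 811 in Icsbp-deficient GMP, against 2625 and 3032 in wild type GMP (log2 ratio -1.73 ± 0.13). Irf8 was still read on the Icsbp-deficient arrays, at 2776 and 2725, against 3059 and 4798 in wild type GMP, on 1416714_at (log2 ratio -0.48 ± 0.16, limma adjusted p = 0.124). The probe set 1448452_at had 3234 and 1892 in Icsbp-deficient GMP, against 3074 and 1847 in wild type GMP (0.06 ± 0.12, limma adjusted p = 0.832). Neither passed, and, since no source used here gives the deleted part of the gene, this checks no label. The preparations of a genotype came from separate pools and also differed in array type and, where the labels give them, in labelling kit and RNA input (5 µg for the Icsbp-deficient 430A array, 1 to 2 µg for both MOE430_2 arrays). P-values rest on these 4 samples alone. Their error is the difference between the ratios of the array types, moderated mostly by other genes, and not the spread between animals.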

How the data were processed

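RNA of sorted GMP was measured on 4 Affymetrix arrays. Each deposited value is a linear signal intensity of 1 probe set. GCOS made the MOE430_2 values per the submitters' processing notes, with version and settings not given in the sources used here, and the authors' scaling target is not given either. The trimmed mean over shared probe sets was 167 on the Icsbp-deficient and 498 on the wild type 430A array, and 159 and 160 on the MOE430_2 arrays, so the deposited 430A values were not on a common scale.

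Shared probe sets without 64 controls (22626) were scaled to a 2% trimmed mean of 500, then raised by an offset of 50, log2 transformed and quantile normalized within each array type. Probe sets with a mean under the 40th percentile were not tested (9050). limma 3.58.1 in R 4.3.3 fitted genotype with array type as a block (lmFit, eBayes with an intensity trend, two-sided, Benjamini-Hochberg), with 1 residual and 8.89 prior degrees of freedom. The number of arrays limits the precision. The fit was also run on simulated arrays with the same error size for all probe sets and independent errors. That setting is simpler than these data, so the run does not bear on their error. Symbols came from the platform annotation, updated through RefSeq of GRCm38.p6: 20380 shared probe sets had 1 symbol, 691 several and 1555 none. For a listed gene with several tested probe sets, the one brightest on average was taken.

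The members, the lists and the tests were chosen with earlier results of these data known. All member probe sets are given, and of each list the called genes, up to 8, are named. Other listed genes in the text were chosen for their role after their values were seen. Scanner files and protein sequences were not used here, so background correction was not varied.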

Additional observations from a re-analysis of the deposited data

How the results depend on the processing

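With array type kept as a block, between 4 and 6 member probe sets were called higher, and 0 lower, under another normalization, offset, filter, error model or 1 probe set per gene. Fcgr3, Tyrobp, Clec5a and the brighter Clec4a2 probe set passed in each of the 7 such settings at probe set level, with log2 ratios from 0.93 to 1.47. The replicate numbers follow accession order, so the block is array type and no other pairing was possible. No replicate block gave 0 calls for the members (5 higher at an unadjusted p under 0.05), 0 for the ITAM signalling genes and 0 higher and 0 lower for the other 3 lists, since the difference between array types then enters the error. Leaving out each array in that model gave 0 to 1 member calls (2 to 4 at an unadjusted p under 0.05), 0 ITAM signalling genes, and 0 higher and 0 to 1 lower of the other lists, against 6, 3, 5 and 3 in the report. Without the intensity trend 0 ITAM signalling genes and 1 higher gene of the other lists passed, without the filter 3 higher and 1 lower, and with the 60th percentile filter, which removes the dim genes that fell, 0 lower.

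Without 1 array, log2 ratios changed sign for genes that were not called: from -0.32 to 0.011 and from -0.30 to 0.18 on 2 Fcgr2b probe sets, from -0.068 to 0.49 for Clec7a, from -0.034 to 0.32 for Syk and from -0.49 to 0.58 for Fcgr4. Among called genes, Tyrobp lay between 0.54 and 1.41, Trem3 between 0.45 (without the Icsbp-deficient MOE430_2 array) and 1.08, and Sirpa at 0.10 without the Icsbp-deficient 430A array, 1.33 without the Icsbp-deficient MOE430_2 array, 1.18 without the wild type 430A array and 0.25 without the wild type MOE430_2 array. These fits have no array type block, so the level difference between array types enters the ratio. Fcgr4, for example, had ratios of 0.04 and 0.06 within the array types. Its signals were 224 and 213 on the 430A arrays, against 80.1 and 79.5 on the MOE430_2 arrays. How much of each change came from that level difference was not tested. Values under the offset of 50, as for Clec4n and most Fcgr1 signals, limit what can be seen.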

Other observations

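Genes of the same lists that only the MOE430_2 array measured had 1 array per genotype and no test. They numbered 14 genes on 23 probe sets, of which 1 was at least 2-fold higher in Icsbp-deficient GMP and 0 at least 2-fold lower. Of all 22411 probe sets of the MOE430_2 array alone, 0.598% were at least 2-fold higher and 0.602% at least 2-fold lower. The listed probe set that was higher read Clec4a3, a lectin gene of the cluster that holds Clec4a2. Clec4a3 had 137 in Icsbp-deficient and 26.8 in wild type GMP, 2.44-fold on the offset scale. Its wild type signal lay under the offset. The early activation lectin Cd69 had 836 in Icsbp-deficient and 672 in wild type GMP. Treml2, a Trem-like receptor, had 540 and 586 on its brightest probe set, and Malt1, of the complex that passes the signal on from Syk, had 242 in Icsbp-deficient and 350 in wild type GMP on its brightest.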
